A study of Mus musculus with 10 samples.

Results

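Accessibility was examined at 69 axon guidance genes, the ligands and receptors that steer growing axons and migrating neurons. The genes were chosen by name from the 21951 protein-coding genes of GENCODE: the semaphorins of vertebrates, plexins, neuropilins, ephrins, Eph receptors, Slits, Robos, netrins, and Dcc with the Unc5 receptors, 9 families in all. ATAC-seq, in which a transposase cuts and tags open DNA, was run on neural stem cell (NSC) cultures derived from the subependymal zone (SEZ) of mice aged 10 weeks. Wild-type (WT) cells and cells of the genotype Cdkn1b (p27KO), which lack the cyclin-dependent kinase inhibitor p27, were each collected in 2 states, and the p27KO mice were kept on a C57BL/6J background. Proliferating cells (PRO) were neurospheres at 3 days in vitro per the labels, although the study's text also names a longer culture, with EGF at 20 ng/ml and FGF at 10 ng/ml. Differentiating cells (DIFF) had spent 2 days on Matrigel with FGF and then 24 h without mitogens, in medium with 2% fetal bovine serum. WT cells gave 3 libraries in each state and p27KO cells 2 in each, every library from 50000 cells. The number of mice behind each culture is not given in the sources used here. Substrate, serum and mitogens changed together between PRO and DIFF, so their parts cannot be told apart, and neither can fewer cells of one kind and less open DNA per cell in these bulk cultures.

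The targeted gene was checked first. All 6 WT libraries had a peak over the start of Cdkn1b, and none of the 4 p27KO libraries had one there or over the gene body. The genotypes thus followed the titles of the libraries, although a further label of these 4 libraries calls the cells WT. A peak near the start of a Y-linked gene was found in all 6 WT and in 0 of 4 p27KO libraries, so genotype and the presence of a Y chromosome cannot be told apart in any contrast between genotypes, and 3 of the guidance genes (Efnb1, Plxna3 and Plxnb3) are X-linked. As a check of the labelled cells, all 8 markers of neural stem and progenitor cells had a peak near their start in every library. Of 3 neuroblast markers, Dlx2 and Tubb3 had one in all 10 libraries and Dcx in 1. Of 5 microglial markers, only Aif1 had one, and no library had more than 1 of 4 endothelial markers, with Pecam1 and Tie1 at none. Between 1 and 3 of 3 mural cell markers had one, namely 2 in every PRO library of WT, 1 to 3 in DIFF libraries of WT, 1 to 2 in PRO and 2 in DIFF libraries of p27KO; their part in the results was not tested.

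Guidance molecules work as pairs of a ligand and a receptor. Semaphorins signal through plexins, and most of the secreted ones also need neuropilins. Ephrins, which stay bound to the membrane, signal through the Eph receptor tyrosine kinases. Slits are secreted repellents read by Robo receptors, and netrins are secreted cues read by Dcc and the Unc5 receptors. In the SEZ the same molecules are known for guiding chains of neuroblasts and for regulating the proliferation of progenitors.

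The 10 peak lists held between 57534 and 91801 peaks, of which between 372 and 581, or 0.626% to 0.675% of a list, lay at guidance genes. Merging all lists gave 99231 regions found in 2 or more libraries, and 638 of them had a summit within 3 kb of the start of a guidance gene or in its body. No region was shared by 2 of the genes. Of the 638 regions, 506 lay in introns, 91 at the start of the gene, 23 at another annotated start of it and 18 in exons. Another 235 regions with a peak in a single library were left aside. The genes held between 0 and 41 regions each, with a median of 6, and Efnb3 held none. Slit3 held 41 regions, Robo1 37 and Sema6d 31, the most of all members. Testing was limited to the 447 regions found in 5 or more libraries, which left 191 untested.

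Changes were tested on ranks. Within each list, regions were ordered by fold enrichment and given a normal score, in which 1 unit is 1 standard deviation of a normal distribution, and regions without a peak were tied at the bottom. In what follows, a percentile places a peak by its fold enrichment among all peaks of its own list, with 100 at the top, and a change is a difference of normal scores between DIFF and PRO (± SE) from a limma fit over the 10 libraries, with the p-value adjusted over all 70627 tested regions of the genome.

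At mitogen withdrawal in WT, 48 of the 447 regions of guidance genes fell and 51 rose, or 10.7% and 11.4%. Over all tested regions, 10.1% fell and 9.15% rose, so the shares were near the background. In p27KO, 33 regions fell and 38 rose (7.38% and 8.5%), against 6.48% and 5.83% of all regions. The median change of the guidance regions was 0.03 in WT and 0.09 in p27KO, beside 0.03 and 0.04 over all regions. Falls were spread over 22 genes in WT and rises over 25; 12 genes had both and 34 had neither. In p27KO the numbers of genes were 19, 22, 11 and 39. Shares of all genes with a fall, a rise or neither were not computed, and a gene with more tested regions can hold more calls. A region in which only one condition had peaks can pass the filter of 5 libraries through that condition alone: the 51 regions with a peak in exactly 5 libraries held 13 of the falls and 14 of the rises in WT. Named regions of this kind lay at Unc5c, Epha1, Epha2, Efna5, Ephb1, Slit3, Robo1, Robo2, Unc5a, Unc5b and Unc5d. Their separation of PRO and DIFF follows partly from the filter, and absent peaks are tied in rank. The p-values given for them below are to be read with this limit. Among the 237 regions with a peak in all 10 libraries, refitted alone, 18 fell and 14 rose in WT, against 7.06% and 5.83% of all such regions, and 13 fell and 12 rose in p27KO, against 3.82% and 2.51%. The counts depended on single libraries: 30, 27 and 30 falls in WT were left without WT PRO replicate 1, 2 or 3, and the rises in WT were 32 and 33 without WT PRO replicate 2 or 3 and 25 and 26 without WT DIFF replicate 1 or 2. In p27KO, where leaving out a library leaves 1 in its group, 17, 13, 15 and 18 falls and 16, 15, 8 and 9 rises were left without PRO replicate 1, PRO replicate 2, DIFF replicate 1 and DIFF replicate 2, and 23 and 25 rises without WT DIFF replicate 1 or 2.

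**Figure D1:**
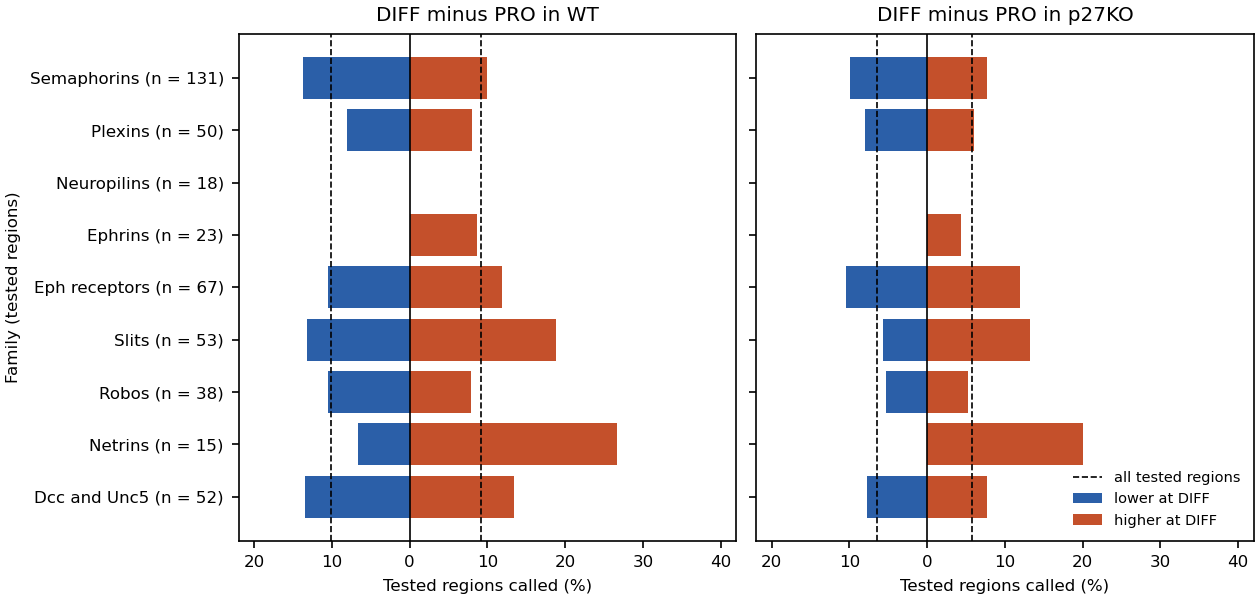
Tested regions of each guidance family called lower (blue, to the left) or higher (red, to the right) at DIFF, as a percentage of the family's tested regions, in WT and in p27KO. Dashed lines mark the shares over all 70627 tested regions; the neuropilins, with 18 tested regions, have no bar in either panel.

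The 3 largest falls in WT, each at a different gene, lay in introns of Sema3a, Unc5c and Epha5. Sema3a encodes a secreted repellent that acts through neuropilins. Its region at chr5:13432757-13433834 (GRCm38), 308067 bp downstream of the gene's start, lay at percentiles 99.3, 99.4 and 97.8 in the WT PRO libraries and at 38.0, 32.2 and 58.4 in the WT DIFF libraries. In p27KO it lay at 97.9 and 99.2 in PRO and at 30.0 and 70.4 in DIFF. PRO and DIFF libraries did not overlap in either genotype, and the region kept a peak in all 10 libraries. The change was −2.37 ± 0.25 in WT (adjusted p = 0.000143) and −2.08 ± 0.30 in p27KO (adjusted p = 0.00155). Unc5c encodes a receptor for netrins that mediates repulsion. Its region at chr3:141493043-141493600, 27975 bp from the start, lay at 83.1, 88.5 and 84.9 in WT PRO and at 90.3 and 87.3 in p27KO PRO, and none of the 5 DIFF libraries had a peak there. The change was −2.32 ± 0.21 in WT (adjusted p = 8.97e-05) and −2.44 ± 0.26 in p27KO (adjusted p = 0.000446). Epha5 encodes an Eph receptor for A-type ephrins. Its region at chr5:84208584-84209235, 208588 bp from the start, lay at 96.7, 96.7 and 97.2 in WT PRO, at 22.5 and 58.4 in 2 WT DIFF libraries and without a peak in the other. In p27KO it lay at 97.9 and 86.2 in PRO and at 35.5 in 1 of 2 DIFF libraries. The change was −2.31 ± 0.33 in WT (adjusted p = 0.00072) and −2.27 ± 0.40 in p27KO (adjusted p = 0.00427).

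The sequences of these 3 regions are shown because they are the places at guidance genes where rank fell the most. Each is the window of 300 bases around the summit on the plus strand of GRCm38.p6, read 5′ to 3′, with capitals at matches to the 6 short motifs described further on.
Sema3a, chr5:13433331-13433630: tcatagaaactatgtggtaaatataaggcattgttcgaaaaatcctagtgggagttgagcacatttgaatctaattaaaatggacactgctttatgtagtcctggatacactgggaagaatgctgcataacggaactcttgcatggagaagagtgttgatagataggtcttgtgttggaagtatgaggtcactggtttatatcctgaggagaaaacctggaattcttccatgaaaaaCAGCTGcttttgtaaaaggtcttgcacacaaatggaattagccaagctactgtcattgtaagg
Unc5c, chr3:141493041-141493340: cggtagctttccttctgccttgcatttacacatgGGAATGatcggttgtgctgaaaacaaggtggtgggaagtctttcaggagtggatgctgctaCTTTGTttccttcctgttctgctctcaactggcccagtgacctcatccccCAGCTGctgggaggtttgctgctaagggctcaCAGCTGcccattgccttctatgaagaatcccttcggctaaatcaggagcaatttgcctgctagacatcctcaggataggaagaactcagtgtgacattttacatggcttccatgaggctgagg
Epha5, chr5:84208644-84208943: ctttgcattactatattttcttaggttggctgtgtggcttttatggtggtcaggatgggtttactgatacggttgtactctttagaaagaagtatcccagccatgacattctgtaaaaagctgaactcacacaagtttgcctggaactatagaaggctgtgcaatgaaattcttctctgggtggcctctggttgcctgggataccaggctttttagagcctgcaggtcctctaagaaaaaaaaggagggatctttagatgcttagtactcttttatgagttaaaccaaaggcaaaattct
The window of Sema3a held 1 E-box, that of Unc5c held 2 E-boxes, 1 SOX and 1 TEAD match, and that of Epha5 held none of the 6 motifs.

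The 3 largest rises in WT, each at a different gene, lay in introns of Efna5, Ephb2 and Slit3. Efna5 encodes an ephrin anchored to the membrane by lipid. Its region at chr17:62816389-62817173, 64566 bp from the start, had no peak in any of the 5 PRO libraries and lay at 66.0, 70.9 and 80.8 in WT DIFF and at 87.6 and 71.9 in p27KO DIFF. The change was 2.30 ± 0.20 in WT (adjusted p = 7.69e-05) and 2.67 ± 0.24 in p27KO (adjusted p = 0.000284), in each genotype the largest rise at a named region. Ephb2 encodes an Eph receptor for B-type ephrins. Its region at chr4:136716378-136717129, 119313 bp from the start, lay at 11.0 and 48.7 in 2 WT PRO libraries, without a peak in the other, and at 79.6, 83.2 and 94.4 in WT DIFF. In p27KO it lay at 52.1 and 49.2 in PRO and at 89.6 and 86.4 in DIFF. DIFF libraries lay above PRO libraries in both genotypes, with changes of 2.14 ± 0.33 in WT (adjusted p = 0.00119) and 1.44 ± 0.40 in p27KO (adjusted p = 0.0406). Slit3 encodes a secreted ligand of Robo receptors. Its region at chr11:35244605-35244906, 123528 bp from the start, had no peak in any PRO library and lay at 49.6, 59.9 and 67.9 in WT DIFF and at 53.3 and 52.2 in p27KO DIFF. The change was 1.94 ± 0.17 in WT (adjusted p = 7.97e-05) and 1.89 ± 0.21 in p27KO (adjusted p = 0.000505).

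The sequences of the regions that rose the most are shown in the same way, with the window of 300 bases around the summit on the plus strand of GRCm38.p6, read 5′ to 3′, and motif matches in capitals.
Efna5, chr17:62816601-62816900: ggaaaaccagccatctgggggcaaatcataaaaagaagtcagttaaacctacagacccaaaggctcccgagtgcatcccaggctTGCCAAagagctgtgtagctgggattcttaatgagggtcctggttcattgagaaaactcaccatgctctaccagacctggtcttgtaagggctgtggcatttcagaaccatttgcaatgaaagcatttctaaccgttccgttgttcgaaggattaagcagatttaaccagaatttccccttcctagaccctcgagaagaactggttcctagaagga
Ephb2, chr4:136716525-136716824: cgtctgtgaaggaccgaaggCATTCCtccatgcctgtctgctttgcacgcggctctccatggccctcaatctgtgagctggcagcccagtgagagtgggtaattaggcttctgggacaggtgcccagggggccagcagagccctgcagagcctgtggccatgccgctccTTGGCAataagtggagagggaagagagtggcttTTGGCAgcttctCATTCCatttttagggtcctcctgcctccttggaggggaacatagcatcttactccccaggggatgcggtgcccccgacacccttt
Slit3, chr11:35244602-35244901: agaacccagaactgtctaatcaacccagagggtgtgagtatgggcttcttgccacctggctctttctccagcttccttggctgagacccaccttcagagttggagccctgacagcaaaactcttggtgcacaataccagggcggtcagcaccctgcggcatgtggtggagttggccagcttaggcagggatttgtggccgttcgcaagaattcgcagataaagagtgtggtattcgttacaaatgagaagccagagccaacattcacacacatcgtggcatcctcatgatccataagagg
The window of Efna5 held 1 NFI site, that of Ephb2 held 2 NFI sites and 2 TEAD matches, and that of Slit3 held none of the 6 motifs.

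**Figure D2:**
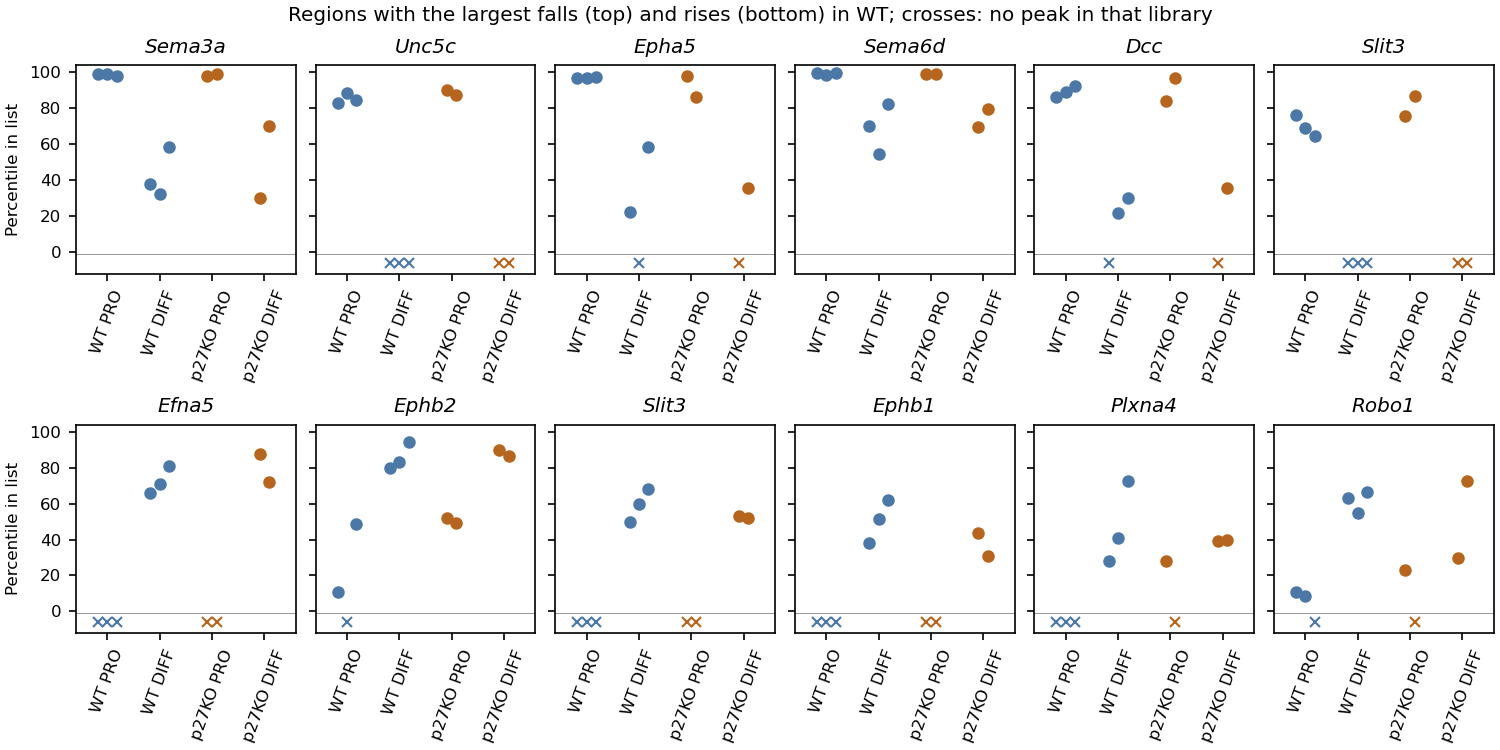
Percentile of fold enrichment in its own list (y axis, 100 at the top) at the 6 largest falls and the 6 largest rises in WT among the named regions. In each direction every region is at a different gene. There is 1 point per library, WT in blue and p27KO in brown, and crosses below the line mark libraries with no peak. In the Unc5c and Slit3 panels of the upper row all 5 DIFF libraries lack a peak, and in the Efna5, Slit3 and Ephb1 panels of the lower row all 5 PRO libraries do.

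The 6 motifs were the AP-1 site TGANTCA, the E-box CAGCTG of proneural factors, the NFI site TTGGCA, the SOX site ACAAAG, the TEAD site GGAATG and the STAT site TTCCNGGAA, searched on both strands in the 300 bases around each summit, where matches of different motifs may overlap. AP-1 matches were found in 27.1% of the 48 guidance regions that fell in WT, in 5.88% of the 51 that rose and in 11.0% of all 447. Over the genome the shares were 28.3%, 6.95% and 10.9%. E-box matches were found in 37.5% of the regions that fell, 23.5% of those that rose and 28.6% of all guidance regions, against 40.8%, 21.2% and 26.7% genome-wide. NFI sites went the other way, with 20.8%, 41.2% and 23.3% at guidance genes and 25.2%, 38.9% and 23.4% genome-wide. TEAD matches were found in 16.7%, 29.4% and 20.6%, against 21%, 29.2% and 18.8%, and SOX matches in 41.7%, 35.3% and 32.9%, against 34.6%, 31.9% and 27.2%. STAT matches were found in 2 of the 447 guidance regions, neither of which fell or rose in WT, and in 1.23% of all regions. At guidance genes as over the genome, AP-1, E-box and SOX matches were more frequent in regions that fell than in those that rose, and NFI and TEAD matches the other way. A match is a run of letters and not a bound site.

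Semaphorins and plexins held 131 and 50 tested regions. Among the 20 semaphorins, 18 regions fell and 13 rose in WT (13.7% and 9.92%, against 10.1% and 9.15% of all regions), and 13 fell and 10 rose in p27KO (9.92% and 7.63%, against 6.48% and 5.83%). Sema6d, a transmembrane semaphorin, held 7 of the falls in WT, the most of any member, of which the largest lay 416279 bp from the start, at chr2:124505950-124506606. The percentile there was 99.7, 98.7 and 99.7 in WT PRO, and 70.1, 54.7 and 82.2 in WT DIFF. In p27KO it was 98.9 and 99.1 in PRO and 69.8 and 79.6 in DIFF. The region thus stayed a peak in all libraries but left the top of the lists, with changes of −1.95 ± 0.21 in WT (adjusted p = 0.000158) and −1.59 ± 0.25 in p27KO (adjusted p = 0.00253). Another Sema6d region, at chr2:124176068-124176531, went the opposite way: it lay at 24.5 in 1 WT PRO library and at 10.8, 27.1 and 46.1 in WT DIFF, and it had no peak in p27KO PRO and lay at 59.7 and 44.3 in p27KO DIFF. It rose by 1.87 ± 0.31 in p27KO (adjusted p = 0.0029) and by 0.98 ± 0.25 in WT (adjusted p = 0.0182), where PRO and DIFF libraries overlapped.

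Sema4a, a transmembrane semaphorin known for roles in immune cells, was the semaphorin whose own start rose. The region at chr3:88460963-88461783, 346 bp upstream of the start, lay without a peak, at 4.86 and at 10.0 in the WT PRO libraries and at 61.4, 34.1 and 60.8 in WT DIFF. In p27KO it lay at 5.80 and 27.2 in PRO and at 53.3 and 59.4 in DIFF. No PRO library reached a DIFF library, and the changes were 1.45 ± 0.24 in WT (adjusted p = 0.00189) and 1.31 ± 0.30 in p27KO (adjusted p = 0.0153). Sema5a, a transmembrane semaphorin with thrombospondin repeats, rose at chr15:32568559-32569378 by 1.43 ± 0.26 in WT (adjusted p = 0.00288), from a peak at 2.04 in 1 of 3 PRO libraries to 33.3, 51.7 and 47.3 in DIFF. In p27KO it went from 43.9 and 10.9 to 74.2 and 52.2. Sema6a, a transmembrane semaphorin on chromosome 18, held the largest fall among semaphorins in p27KO not already named, in an intron near another of its annotated starts at chr18:47330153-47330978. It lay at 64.7 and 66.3 in p27KO PRO with no peak in p27KO DIFF, and at 67.1, 68.2 and 54.7 in WT PRO against 14, 7.22 and 22.6 in WT DIFF. The change was −1.53 ± 0.24 in p27KO (adjusted p = 0.00236) and −0.91 ± 0.20 in WT (adjusted p = 0.00857).

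Plexins, the receptors of semaphorins, had 4 falls and 4 rises in WT (8.0% each, against 10.1% and 9.15% of all regions). In p27KO they had 4 falls and 3 rises (8.0% and 6.0%, against 6.48% and 5.83%). With 50 tested regions, these shares were near the background in both genotypes. The falls of largest size lay in introns of Plxna2 and Plxna4. At Plxna2, the region at chr1:194681881-194682458 lay at 71.1, 69.7 and 72.3 in WT PRO and at 78.1 and 72.5 in p27KO PRO, and a single DIFF library, of WT, had a peak, at 18.0. It fell by 1.57 ± 0.16 in WT (adjusted p = 0.000136) and by 1.86 ± 0.20 in p27KO (adjusted p = 0.000446). At Plxna4 one intronic region fell and another rose. The first, at chr6:32479192-32479781, lay at 77.7, 80.2 and 60.6 in WT PRO and at 76.2 and 80.3 in p27KO PRO, and in DIFF it had a peak in 1 library of each genotype, at 4.79 in WT and 12 in p27KO. The second, at chr6:32520183-32520528, had no peak in WT PRO and lay at 28.2, 41.1 and 72.7 in WT DIFF; in p27KO it lay at 28.3 in 1 PRO library and at 39.4 and 39.5 in DIFF. The changes in WT were −1.73 ± 0.24 (adjusted p = 0.000641) and 1.72 ± 0.23 (adjusted p = 0.000558). Also in Plxna4, the region at chr6:32557992-32558609 rose in both genotypes while it kept a peak in all 10 libraries, from 32.4, 67.9 and 38.8 to 78.8, 88.9 and 93.7 in WT and from 74.4 and 54.3 to 91.1 and 94.3 in p27KO. Its change was 1.42 ± 0.27 in WT (adjusted p = 0.00414) and 1.29 ± 0.33 in p27KO (adjusted p = 0.0276). In p27KO it missed the threshold without any 1 of the 4 p27KO libraries, at values from 1.05 to 1.59.

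Another pair of plexin regions was named by the rule. Plxna1 rose at chr6:89351455-89352239, from 53.9, 57.7 and 49.5 to 71.3, 78 and 72.5 in WT and from 55.3 and 63.0 to 78.9 and 82.1 in p27KO, a smaller change of 0.68 ± 0.19 in WT (adjusted p = 0.0283). Without WT PRO replicate 1, 2 or 3 or WT DIFF replicate 1 or 2, it was 0.68, 0.75, 0.65, 0.70 and 0.57 and did not pass the threshold. The other region, at chr1:194808065-194808956 in Plxna2, fell by 1.79 ± 0.32 in p27KO (adjusted p = 0.00448). Neuropilins, co-receptors of secreted semaphorins, had 0 calls among 18 tested regions in either genotype by limma. Of all regions, 10.1% fell and 9.15% rose in WT, and 6.48% and 5.83% in p27KO. An unadjusted limma p under 0.05 was found at 2 neuropilin regions in WT and 5 in p27KO. Over the genome it was found at 22689 and 18169 of 70627 regions. No other tool was run on the neuropilins.

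Ephrins and Eph receptors held 23 and 67 tested regions. Among the 8 ephrins, 0 regions fell and 2 rose in WT, and 0 fell and 1 rose in p27KO, and the rises lay at Efna5. These rises are 8.7% and 4.35% of so few regions, near the 9.15% and 5.83% of all regions that rose. Of all regions, 10.1% fell in WT and 6.48% in p27KO. Eph receptors had 7 falls and 8 rises in WT and the same numbers in p27KO, 10.4% and 11.9% of their regions, against 10.1% and 9.15% of all regions in WT and 6.48% and 5.83% in p27KO. Epha2, an Eph receptor for A-type ephrins, had a fall at chr4:141310972-141311537. The region lay at 65.6, 53.7 and 40.4 in WT PRO and at 57.3 and 58.0 in p27KO PRO. No DIFF library had a peak there. The region passed the filter of 5 libraries through PRO alone, so the separation of the conditions follows partly from that filter. It fell by 1.3 ± 0.23 in WT (adjusted p = 0.00274) and by 1.3 ± 0.28 in p27KO (adjusted p = 0.0127). Ephb1, a receptor of B-type ephrins, rose at chr9:102096830-102097192, where no PRO library had a peak and where WT DIFF lay at 38.0, 51.7 and 61.9 and p27KO DIFF at 43.4 and 31.1. The change was 1.74 ± 0.18 in WT (adjusted p = 0.000154) and 1.53 ± 0.22 in p27KO (adjusted p = 0.00168). At chr9:102006541-102006813, in the same gene, the opposite held: WT PRO lay at 53.1, 50.3 and 38.8 and p27KO PRO at 63.8 and 60.5, with no peak in DIFF. That region fell by 1.44 ± 0.26 in p27KO (adjusted p = 0.00489) and by 1.14 ± 0.21 in WT (adjusted p = 0.00354); in p27KO it was −1.32 without DIFF replicate 2 and missed the threshold. A second Ephb2 region, at chr4:136776558-136776906, rose by 1.70 ± 0.29 in p27KO (adjusted p = 0.0035), from no peak to 43.4 and 46.4, and in WT from a peak in 1 of 3 libraries, at 16.9, to 33.3, 41.1 and 38.1.

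The 3 Slits, with 53 tested regions, had 7 falls and 10 rises in WT (13.2% and 18.9%, against 10.1% and 9.15% of all regions) and 3 falls and 7 rises in p27KO (5.66% and 13.2%, against 6.48% and 5.83%). Slit3 alone held 5 falls and 8 rises in WT among 29 tested regions, while Slit1 held none in either direction among 12. The falls of Slit3 lay between 364 and 546 kb from its start and the rises between 58.2 and 552 kb. Its largest fall, at chr11:35484695-35485098, lay at 76.3, 69.3 and 64.6 in WT PRO and at 75.5 and 87.1 in p27KO PRO, with no peak in DIFF. It fell by 1.77 ± 0.23 in WT (adjusted p = 0.000472) and by 2.10 ± 0.28 in p27KO (adjusted p = 0.00117). Another region, at chr11:35627780-35628313, fell by 1.48 ± 0.22 in p27KO (adjusted p = 0.00174), from 62.7 and 64.8 to no peak. Another, at chr11:35179291-35179728, rose by 1.85 ± 0.23 in p27KO and by 1.83 ± 0.19 in WT (adjusted p = 0.000802 and 0.000141), from no peak in any PRO library to 58.7, 51.7 and 56.5 in WT and 55.9 and 46.4 in p27KO. Slit2, the Slit best known as a repellent of SEZ neuroblasts, fell at a region near the top of every list, at chr5:48081205-48082098. Its percentile was 99.5, 99.8 and 99.4 in WT PRO and 93.5, 91.1 and 89.2 in WT DIFF, and 97.9 and 98.8 in p27KO PRO against 83.9 and 93.8 in p27KO DIFF. The change passed the test in WT, at −1.24 ± 0.21 (adjusted p = 0.00202), and was −0.80 ± 0.26 in p27KO (adjusted p = 0.0691). A second Slit2 region, at chr5:48122702-48123231, rose by 1.47 ± 0.29 in WT (adjusted p = 0.00498), from a peak at 27.7 in 1 of 3 PRO libraries to 56.0, 45.1 and 58.4.

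Robos, the Slit receptors, held 38 tested regions, with 4 falls and 3 rises in WT and 2 falls and 2 rises in p27KO. Their rises in WT are 7.89% of these regions and each direction in p27KO 5.26%, against 9.15% of all regions for rises in WT and 6.48% and 5.83% in p27KO. Robo1 fell at chr16:72740076-72740532 and rose at chr16:72610660-72611157. The falling region lay at 57.1, 67.9 and 58.5 in WT PRO and at 70.9 and 31.9 in p27KO PRO, and of the DIFF libraries a single WT one had a peak, at 30.1. The rising region lay at 11.0 and 8.63 in 2 of 3 WT PRO libraries and at 63.1, 54.7 and 66.5 in WT DIFF, and in p27KO at 23.1 in 1 of 2 PRO libraries and at 30.0 and 72.5 in DIFF. The changes in WT were −1.19 ± 0.25 (adjusted p = 0.00674) and 1.62 ± 0.26 (adjusted p = 0.00163). A further Robo1 region, at chr16:73005906-73006360, had no peak in PRO and rose by 1.93 ± 0.22 in p27KO (adjusted p = 0.000555), to 46.9 and 61.6. Robo2 fell at chr16:74072332-74073087 by 0.83 ± 0.24 in WT (adjusted p = 0.0345), from 68.1, 65.0 and 42.4 to 16.6 and 38.1 in 2 of 3 DIFF libraries; the change was between −0.64 and −0.93 and did not pass the threshold without WT PRO replicate 1 or 2 or any 1 WT DIFF library. Another Robo2 region, at chr16:74283577-74284002, fell by 1.35 ± 0.32 in p27KO (adjusted p = 0.0189), from 60.4 and 58.6 to no peak. That change was −1.42 without p27KO DIFF replicate 1 and −1.23 without replicate 2, and passed the threshold in neither case.

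**Figure D3:**
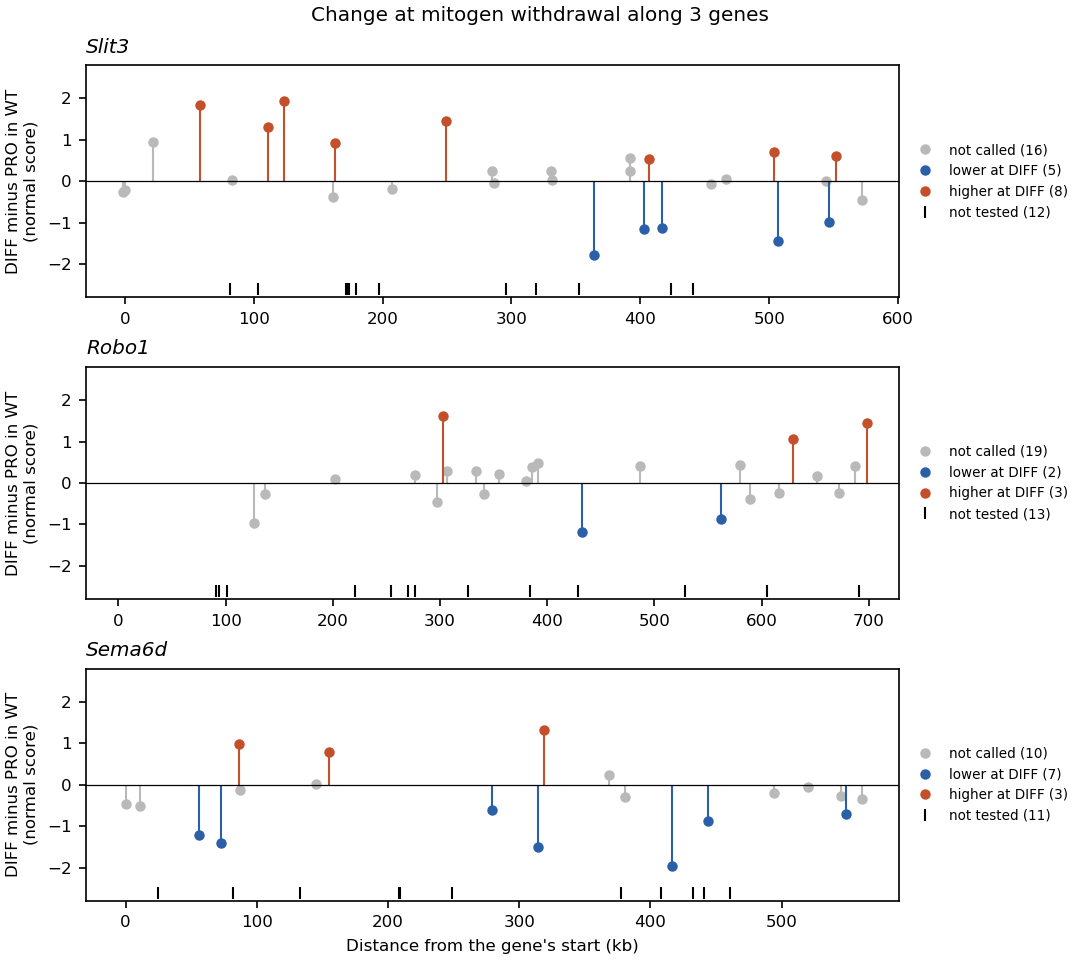
Change between PRO and DIFF in WT (y axis, normal scores) at the tested regions of the 3 guidance genes with the most regions, against distance from the gene's start in kb; blue regions fell, red regions rose, grey ones were not called, and ticks mark regions that were not tested. Slit3 has 5 falls and 8 rises, Robo1 has 2 and 3, and Sema6d has 7 and 3, with falls and rises interspersed along Sema6d.

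The 4 netrins held 15 tested regions, with 1 fall and 4 rises in WT and 0 falls and 3 rises in p27KO. The rises are 26.7% and 20.0% of so few regions, against 9.15% and 5.83% of all. The fall in WT is 6.67% of them, against 10.1% of all regions, and 6.48% of all regions fell in p27KO. Ntn1, the founding secreted netrin, rose at chr11:68341184-68341851, from 32.4 and 4.86 in 2 of 3 WT PRO libraries to 38.0, 62.1 and 52.2 in WT DIFF, and from no peak to 24.4 and 54.8 in p27KO. The change was 1.21 ± 0.28 in WT (adjusted p = 0.012) and 1.62 ± 0.35 in p27KO (adjusted p = 0.0118); in WT it was 1.13 without WT PRO replicate 2 and 0.96 without WT PRO replicate 3, and then did not pass the threshold. Ntn3 and Ntn5 rose at their starts. For Ntn3, at chr17:24208932-24209729, the percentile in WT was 13.8, 20.3 and 12.1 in PRO and 13.1, 14 and 53.2 in DIFF, so only 1 WT DIFF library stood apart. In p27KO the groups separated, from 13.6 and 7.71 to 41.3 and 45.3, with a change of 1.14 ± 0.21 (adjusted p = 0.00478). For Ntn5, at chr7:45682648-45683031, the percentile was 41.9, 53.8 and 43.8 in WT PRO and 64.5, 46.9 and 77.5 in WT DIFF, which overlapped, and 50.5 and 41.6 against 63.7 and 75.3 in p27KO. The change in WT was 0.63 ± 0.19 (adjusted p = 0.0371), and it missed the threshold without any 1 library of 7, among them every WT library but DIFF replicate 2. It also missed it with the other filter of 2 libraries (0.50, adjusted p = 0.0775), with ranks of −log10 p (0.36, adjusted p = 0.134), with the 2 WT groups fitted alone (adjusted p = 0.0608) and with a replicate block (adjusted p = 0.063). Ntn4 fell at chr10:93736174-93736594, from 32.4, 65.0 and 64.6 in WT PRO to no peak in WT DIFF (change −1.32 ± 0.31, adjusted p = 0.0127); the change was −1.3, −1.29 and −1.07 without WT PRO replicate 2 or 3 or WT DIFF replicate 3, past the threshold in none of these.

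Dcc and the Unc5 receptors, which read netrins, held 52 tested regions, with 7 falls and 7 rises in WT (13.5% each, against 10.1% and 9.15% of all regions) and 4 and 4 in p27KO (7.69% each, against 6.48% and 5.83%). Dcc, the attractive netrin receptor, fell at chr18:72225570-72226391, where WT PRO lay at 86.3, 89.3 and 92.7 and WT DIFF at 21.8 and 30.1 in 2 of 3 libraries. In p27KO it lay at 84 and 96.8 in PRO and at 35.5 in 1 of 2 DIFF libraries, so DIFF lay below PRO throughout. The changes were −1.95 ± 0.32 in WT (adjusted p = 0.00171) and −2.11 ± 0.39 in p27KO (adjusted p = 0.00561). Unc5a and Unc5d, both netrin receptors of the repulsive class, rose. The Unc5a region at chr13:54978832-54979423 had no peak in any PRO library and lay at 31.1, 34.3 and 46.3 in WT DIFF and at 51.6 and 47.8 in p27KO DIFF. The Unc5d region at chr8:28973850-28974213 also had none in PRO and lay at 22.5, 10.6 and 72.7 in WT DIFF and at 50.3 and 73.2 in p27KO DIFF. Their changes were 1.43 ± 0.17 and 1.52 ± 0.24 in WT (adjusted p = 0.000297 and 0.00152) and 1.81 ± 0.21 and 2.14 ± 0.30 in p27KO (adjusted p = 0.000626 and 0.00136). A second region of Unc5a, near another of its annotated starts at chr13:54994506-54995007, rose by 1.62 ± 0.24 in p27KO (adjusted p = 0.00177). Unc5b fell at chr10:60792552-60793467 by 1.52 ± 0.31 in p27KO (adjusted p = 0.00948), from 64.3 and 65.7 to no peak; without p27KO DIFF replicate 1 or 2 the change was −1.60 and −1.40 and missed the threshold.

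Some genes held both falls and rises. The 12 genes with both in WT were Sema3a, Slit3, Sema6d, Sema6a, Sema5a, Sema5b, Ephb1, Plxna4, Slit2, Robo1, Unc5c and Dcc. The distance from a fall to the nearest rise in the same gene was between 2.10 kb, in Sema3a, and 170 kb, in Dcc, with a median of 22.8 kb. In Slit3 the nearest pair was 3.29 kb apart and in Sema6d 3.83 kb. Of the 68 guidance genes with a tested region, these are 17.6%, against 6.25% of all protein-coding genes with one. All 12 had at least 12 tested regions, as did 16 guidance genes in all, and among genes with that many the shares were 75.0% at guidance genes and 72.9% over all genes, which are close.

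Few calls lay near starts. Among the 103 guidance regions within 3 kb of any protein-coding start, 2 fell and 7 rose in WT (1.94% and 6.80%), and among the 344 others 46 fell and 44 rose (13.4% and 12.8%). Over all tested regions in protein-coding genes the shares were 2.98% and 4.03% within 3 kb and 12.6% and 11.8% further away. In p27KO, 2 fell and 5 rose within 3 kb (1.94% and 4.85%, against 1.68% and 2.05% of all such regions) and 31 fell and 33 rose further away (9.01% and 9.59%, against 8.33% and 7.92%). At the genes' own starts, 83 regions were tested, with 1 fall and 3 rises in each genotype (1.2% and 3.61%). At the starts of all protein-coding genes, 2.28% fell and 3.51% rose in WT and 1.19% and 1.61% in p27KO. The rises in WT and in p27KO were those of Sema4a, Ntn3 and Ntn5, the last of which in WT was lost under several alternatives. The fall in WT was at Sema3g, a secreted semaphorin, and that in p27KO at Epha1, an Eph receptor; both are named here after their values were seen. At Sema3g the percentile went from 38.7, 67.7 and 73.2 to 10.8 and 25.5 in 2 of 3 WT DIFF libraries (change −1.0 ± 0.26, adjusted p = 0.0197). At Epha1 it went from 45.1 and 70.8 to no peak in p27KO (change −1.3 ± 0.39, adjusted p = 0.0492). The Epha1 region passed the filter of 5 libraries through PRO alone, so this separation follows partly from the filter.

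Peaks at the starts were present in nearly all guidance genes. A peak within 3 kb of the annotated start was found in all 10 libraries at 61 of the 69 genes, against 59.4% of all protein-coding genes. It was absent from every library at Efnb3, a transmembrane ephrin, Sema3b, a secreted semaphorin, and Robo1. Robo1 nonetheless held 37 regions, and 1 of them, at another annotated start 354838 bp downstream, had a peak in all 10 libraries. Sema3a had a peak at its annotated start in 1 WT DIFF library alone, at percentile 10.6, and a region with a peak in all 10 libraries at another start 274031 bp downstream. Robo4, a Robo known from endothelial cells, had a peak upstream of its start in both p27KO PRO libraries, at 5.80 and 2.05, and in no other library. It was the one member that lost every peak within 3 kb of its start in a genotype. Counted by region, 1 of the 91 regions at starts closed in WT (1.1%), at Epha1. In p27KO 5 closed (5.49%), at Epha1, Epha4, Ephb6, Robo4 and Sema4b, while 0 opened in either genotype. The shares over all start regions were not computed, and over all regions at any place 4.32% closed in WT and 10.9% in p27KO. The Epha4 and Ephb6 regions lay near the bottom of the p27KO PRO lists, at 3.72 and 1.27 and at 8.38 and 1.3. The 4 genes other than Robo4 kept another peak near the start, and all 5 are named by presence alone. Epha8 had a start peak in 3 libraries, 1 each of WT PRO, p27KO PRO and p27KO DIFF, at 25.9, 28.3 and 31.1. Sema4a and Efna3 each had one in 9 libraries.

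The height of the start peak differed widely between guidance genes. Taking the median percentile over the 10 libraries, the 61 genes ranged from 20.0 to 97.6 with a median of 69.0, while the median over the 13044 protein-coding genes with a start peak in all libraries was 84.3. The percentile was above 90 at 6 of the 61 genes (9.84%), against 33.0% of all genes, and below 50 at 7 (11.5%), against 4.91%. The highest were Sema3d, Sema6c and Sema3c among semaphorins, with medians of 97.6, 97.6 and 96.2, followed by Ephb3 with 95.1, Unc5d with 92.2 and Slit1 with 90.4. The ranges over libraries of the first 4 overlapped, from 94.0 to 98.6 for Sema3d and from 94.1 to 98.2 for Ephb3, so they cannot be put in order. Ntn3 was the lowest, with a median of 20.0 and a range of 7.71 to 53.2, below Sema6b with 37.8. By family, the median over genes was 80.1 for Eph receptors, 77.4 for Dcc and Unc5, 75.3 for Robos, 70.3 for plexins, 68.3 for Slits, 66.5 for ephrins, 64.2 for semaphorins, 59.3 for neuropilins and 54.9 for netrins.

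**Figure D4:**
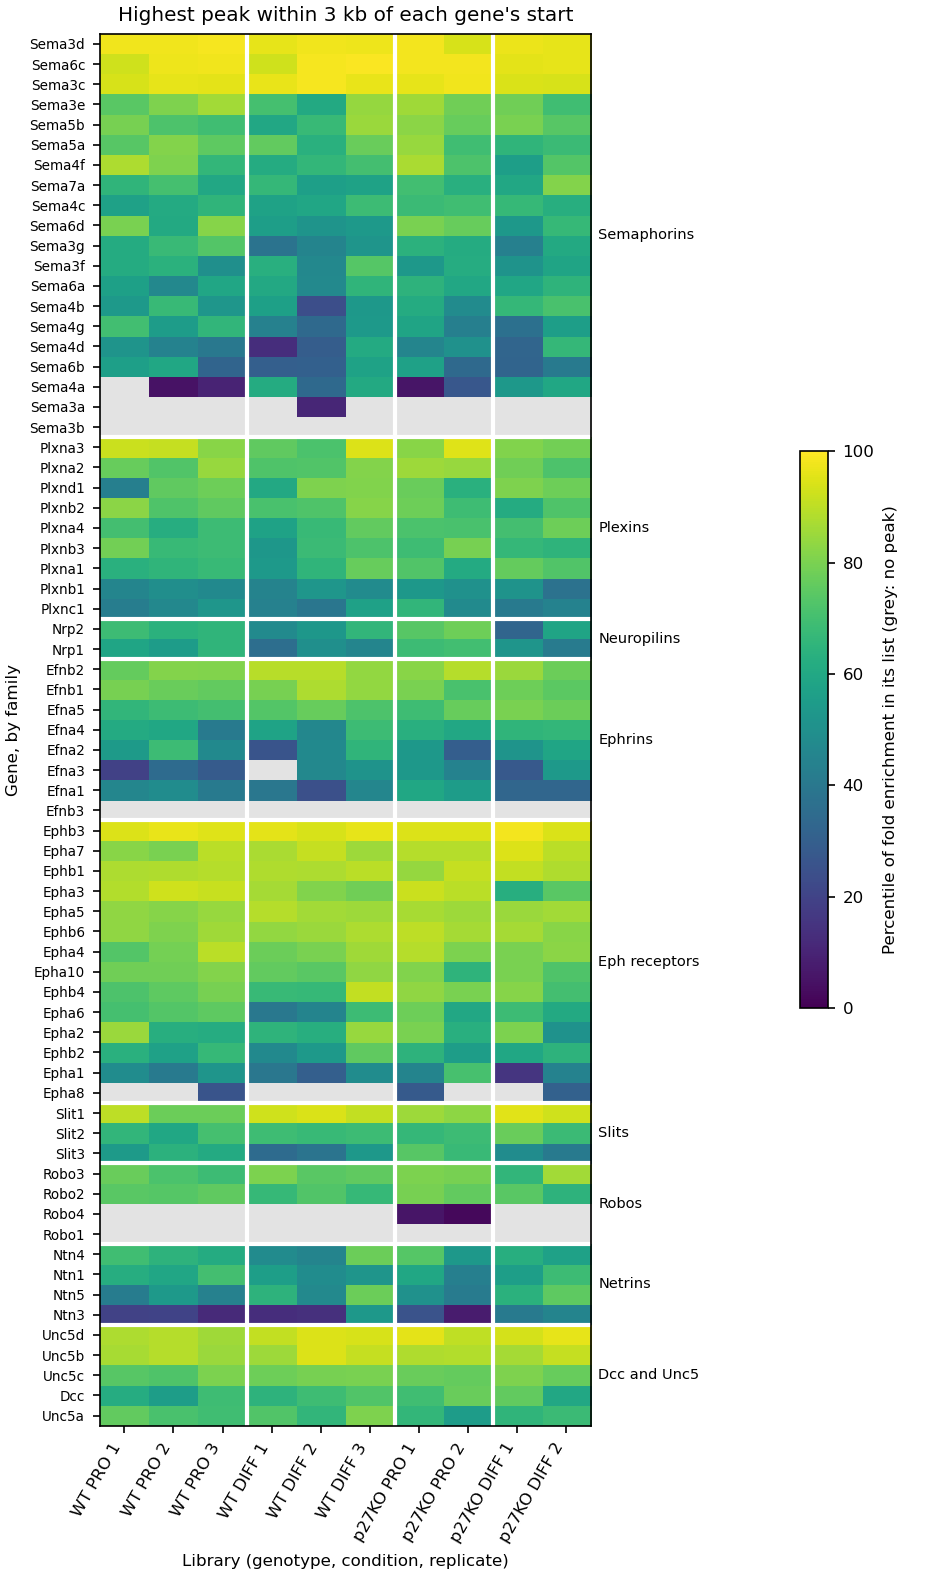
Percentile of fold enrichment, in its own list, of the highest peak within 3 kb of the start of each of the 69 guidance genes (rows, by family and then by median) in the 10 libraries (columns); grey cells have no peak. Efnb3, Sema3b and Robo1 are grey throughout, and Sema3d, Sema6c, Sema3c and Ephb3 are near the top of every list.

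Start peaks whose PRO and DIFF libraries did not overlap were counted as a description. In WT the DIFF libraries all lay below the PRO libraries at 9 of the 61 genes (14.8%, against 6.82% of all genes) and above them at 6 (9.84%, against 12.9%). In p27KO, with 2 libraries a group, the counts were 18 (29.5%, against 22.4%) and 9 (14.8%, against 21.2%). DIFF was below PRO in both genotypes at 6 genes, against 4.41% of all genes, and above it in both at 2, against 5.88%. The 6 were Epha3, Robo2, Sema6d, Sema3g, Nrp1 and Slit3, and the 2 were Slit1 and Efna5, all named after their values were seen. At Slit1 the percentile was 89.9, 77.7 and 77.4 in WT PRO and 92.7, 94.5 and 90.9 in WT DIFF, and 85.3 and 83.2 against 95.4 and 92.6 in p27KO. At Epha3 it was 88.3, 92.6 and 91.5 against 86.5, 81.2 and 78.3 in WT, and 92.0 and 89.7 against 62.7 and 74.6 in p27KO. At Nrp1, a receptor of secreted semaphorins, it was 58.6, 55.4 and 65.5 against 36.3, 49.9 and 45.7 in WT, and 68.7 and 69.6 against 52.1 and 41.6 in p27KO. Of the start regions of these 8 genes, that of Sema3g in WT was the only one past the threshold of the rank test.

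The regions called in one genotype mostly changed in the same direction in the other, as regions did over the genome. Of the 48 regions that fell in WT, 48 had a negative change in p27KO and 37 had an unadjusted p under 0.05 there; of the 51 that rose, 50 had a positive change and 43 an unadjusted p under 0.05. Over all tested regions, 97.6% of the falls and 96.9% of the rises in WT had the same sign in p27KO. The same sign with an unadjusted limma p under 0.05 was found for 77.1% of these falls at guidance genes, against 75.9% of all. For the rises in WT the shares were 84.3% and 73.8%. The 33 falls and 38 rises of p27KO had the same sign in WT in 33 and 38 cases, against 99% and 97.8% of all. In all, 60 regions were called in both genotypes, 26 as falls and 34 as rises, 39 in WT alone and 11 in p27KO alone, and none was called in opposite directions. These are 5.82%, 7.61%, 8.72% and 2.46% of the guidance regions, and the shares over all tested regions were 5.21%, 4.63%, 9.37% and 2.47%. A region called in one genotype alone is not thereby shown to differ between them. The test of that difference, the interaction of genotype and condition, called 0 of the 447 guidance regions by limma, against 0% of all regions, and 16 had an unadjusted p under 0.05 (3.58%, against 3.91% of all). No other tool was run for it.

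**Figure D5:**
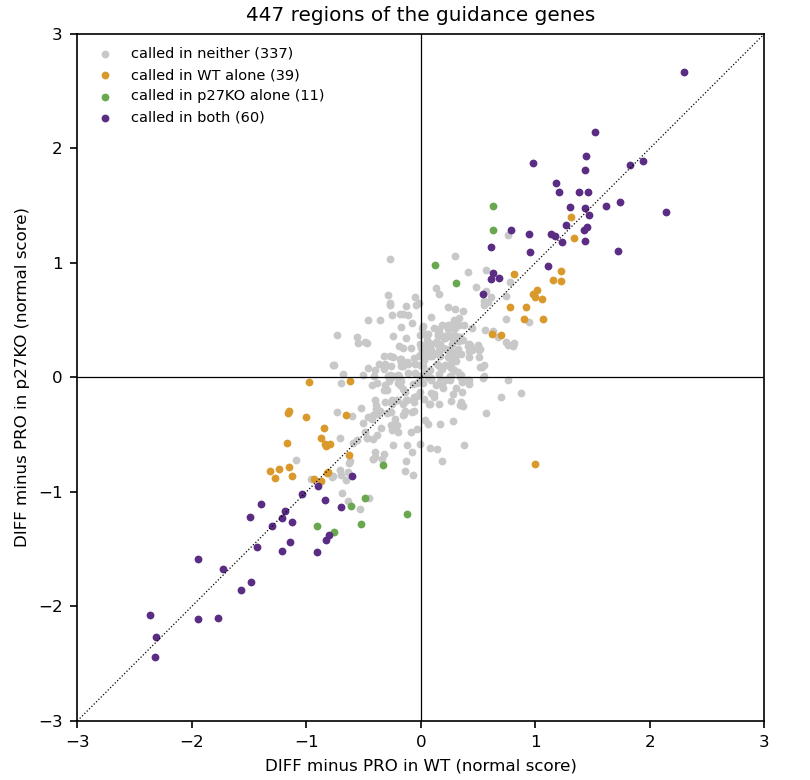
Change between PRO and DIFF in p27KO (y axis) against that in WT (x axis), in normal scores, at the 447 tested regions of guidance genes; colours give the genotype in which a region was called, and the dotted line marks equal change. All 60 regions called in both lie in the lower left or upper right corner, and 1 region called in WT alone, in Sema6a, lies in the lower right.

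The 3 guidance regions with the smallest unadjusted p for the interaction lay in Sema6a, Epha3 and Ephb1. At Sema6a, at chr18:47335963-47336363, a peak was found in 1 of 3 WT PRO libraries, at 27.7, and in all WT DIFF libraries, at 38.0, 19 and 39.7, while p27KO had peaks in PRO, at 39.3 and 38.1, and none in DIFF. The interaction was −1.76 ± 0.41 (unadjusted p = 0.00123, adjusted p = 1). At Epha3, a receptor of A-type ephrins, the region at chr16:63816729-63817940 lay at 78.4, 67.3 and 72.8 in WT PRO and at 5.48, 10.6 and 30.1 in WT DIFF, and at 58.4 and 36.1 against 12 and 26.3 in p27KO, with an interaction of 0.86 ± 0.31 (unadjusted p = 0.0175, adjusted p = 1). At Ephb1, at chr9:101971732-101972086, the interaction was 0.76 ± 0.28 (unadjusted p = 0.0198, adjusted p = 1). None of these passed adjustment.

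Between genotypes at the same condition, 0 of the 447 regions were called at PRO and 0 at DIFF by limma, against 0.034% and 0.0156% of all tested regions, and 23 and 22 had an unadjusted p under 0.05 (5.15% and 4.92%, near the 5.53% and 4.91% of all regions). At PRO the smallest p belonged to Dcc, at chr18:71502864-71503644, which lay at 64.4, 71.9 and 62.7 in WT and at 43.9 and 39.8 in p27KO (p27KO minus WT −0.83 ± 0.19, unadjusted p = 0.001, adjusted p = 0.405). Next was Sema3d, a secreted semaphorin, at chr5:12575800-12576218, which lay at 22.4, 33.4 and 20.7 in WT PRO and had no peak in p27KO PRO (−1.06 ± 0.25, unadjusted p = 0.00121, adjusted p = 0.434). The Epha3 region given above was next (−0.86 ± 0.22, unadjusted p = 0.00235). At DIFF the smallest p belonged to the same Sema6a region (−1.03 ± 0.29, unadjusted p = 0.0045, adjusted p = 0.797). It was followed by Sema5a at chr15:32596186-32596954, at 58.7, 54.7 and 52.2 in WT DIFF against 6.22 and 31.1 in p27KO DIFF, and by Dcc at chr18:72006112-72006437, with a peak at 56.5 in 1 of 3 WT DIFF libraries against 64.6 and 57.2 in p27KO DIFF. Their differences were −0.76 ± 0.23 and 1.06 ± 0.31 (unadjusted p = 0.00609 and 0.00623).

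Regions were also counted by the presence of a peak alone. In WT, 33 of the 638 guidance regions closed, with a peak in every PRO and no DIFF library, and 16 opened; 4.32% and 1.86% of all regions did so. In p27KO, with 2 libraries a group, 72 closed and 29 opened, against 10.9% and 3.32%. Both genotypes shared 19 closed and 11 opened regions, which is 19 of 33 in WT and 19 of 72 in p27KO for those that closed. The same overlap was not computed over all regions, so it is not a result about guidance genes. WT DIFF replicate 3, whose list held 88738 peaks against 61783 and 57534 in the other WT DIFF libraries, decided the first count: without it, 62 regions closed in WT. Without WT DIFF replicate 2, 33 opened in WT; without p27KO DIFF replicate 2, 110 closed in p27KO; and without p27KO DIFF replicate 1 or 2, 52 or 51 opened.

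Other genes of the pathway, 44 co-receptors, antagonists and cytoplasmic partners, held 377 tested regions. In WT 34 fell and 44 rose (20.7% in all), near the 10.1% and 9.15% of all regions that did so. In p27KO 26 fell and 34 rose (15.9% in all), beside 6.48% and 5.83% of all regions, with 0 called for the interaction or between genotypes. Falls were found at 19 of these genes and rises at 23 in WT, and 16 had neither. For these counts of genes, no share over all genes was computed. Ptk2, the focal adhesion kinase that acts below many guidance receptors, held both a fall, at chr15:73267962-73268636, and a rise, at chr15:73352709-73353066. The first lay at 86.5, 76.9 and 74.1 in WT PRO and at 83.1 and 70.2 in p27KO PRO with no peak in any DIFF library. It passed the filter of 5 libraries through PRO alone, so its separation of the conditions follows partly from that filter. The second lay at 5.71 in 1 of 3 WT PRO libraries and at 70.1, 73.2 and 74.9 in WT DIFF. Their changes in WT were −2.08 ± 0.23 (adjusted p = 0.000196) and 2.13 ± 0.26 (adjusted p = 0.00034). Lrrc4c, a partner of netrin-G, fell at chr2:96503642-96504630 (−1.84 ± 0.22, adjusted p = 0.000278), from 74.3, 71.6 and 90.3 to a peak at 20.5 in 1 of 3 WT DIFF libraries. Nrcam, an adhesion molecule of axons, rose at chr12:44498794-44499330 (1.91 ± 0.26, adjusted p = 0.000543), from no peak to 64.4, 63.7 and 50.9. In p27KO it also had no peak in PRO, and it lay at 51.7 and 23.8 in DIFF. The Nrcam region passed the filter of 5 libraries through DIFF alone, so its p-value has the same limit.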

How the data were processed

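ATAC-seq peak lists of 10 libraries were used, 1 list per library, with groups and replicate numbers taken from the titles. Where the labels do not tie libraries to separate mice, p-values measure the spread between these libraries. The authors clipped adapters with Cutadapt, trimmed with Trimmomatic, mapped reads with Bowtie2 to GRCm38 (mm10), with the dovetail option, flagged duplicate reads using Picard, and called peaks for each library in the narrow mode of MACS2 with modelling off and an FDR limit of 0.05; versions, read shift and extension are not given in the sources used here. The deposited fold enrichment is a ratio, of coverage at a summit over its local background. The deposited −log10 p-value and −log10 q-value of each peak were used only as alternatives; the lowest −log10 q-value was 1.30. The number of reads per library is unknown, so absence of a call does not show closed DNA, and list length may follow depth.

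Intervals overlapping by at least 1 bp were merged, and regions found in 2 or more libraries were kept. Genes were taken from GENCODE M21, whereas the authors annotated with M18. Within-list ranks of fold enrichment were compared in limma 3.58.1 (R 4.3.3) by fitting group means over all 10 libraries, with Benjamini-Hochberg adjustment over the 70627 regions found in 5 or more libraries (threshold 0.05). The study's DiffBind test needs alignments, which were not used here. Tables were made with Python 3.11.15 and pandas 2.3.3.

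Members, gene lists and motifs were chosen with earlier results of these data known. Named regions were, in each family, up to 2 falls and 2 rises in WT by size, 1 per gene and direction, and 1 more of each in p27KO; the 3 smallest p-values of each contrast with no call; starts lacking a peak or closing; and the 3 genes with most regions. Sequences are those of the 3 largest named falls and rises outside chromosome 18. Alternatives were other filters on regions (a peak in at least 2 or in all 10 libraries), ranking by −log10 p-value, a fit of the compared groups alone, replicate blocks, a −log10 q-value of at least 2, the top 57000 peaks of each list, regions merged from 100 bp to either side of summits, chromosomes 1 to 19 alone, a start distance of 1 kb, and each library left out.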

Additional observations from a re-analysis of the deposited data

Results flagged for a closer look

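At 2 places the genotypes separated in opposite directions. An intronic Ephb1 region at chr9:101971732-101972086 lay at percentiles 73.1, 71.9 and 76.7 in WT PRO and 56.0, 45.1 and 54.4 in WT DIFF, and at 70.9 and 65.7 in p27KO PRO against 71.4 and 71.9 in p27KO DIFF. Every WT DIFF library was thus below, and every p27KO DIFF library above, the PRO libraries of its genotype. The interaction, 0.76 ± 0.28 in normal scores, had an unadjusted limma p of 0.0198 and an adjusted p of 1, so the difference did not pass the test. At the start of Sema3c, a secreted semaphorin, the peak at chr5:17573750-17575337 lay at 94.0, 96.1 and 96.0 in WT PRO and 96.7, 98.8 and 96.8 in WT DIFF, and at 96.3 and 97.8 in p27KO PRO against 94.5 and 94.1 in p27KO DIFF. The interaction there was −0.57 ± 0.31 (limma, unadjusted p = 0.0932, adjusted p = 1), and it did not pass the test either.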

How the results depend on the processing

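Of 84 counts recomputed for 12 results under alternatives other than leaving out a library, 77 stayed within 1.5 times the count given and 7 did not. With regions present in all 10 libraries, 18 fell and 14 rose in WT and 13 fell and 12 rose in p27KO, as fewer regions are tested. With regions present in at least 2 libraries, 1 region was called for the interaction and 1 for p27KO against WT at PRO, both times in Plxnc1. When lists were cut to their top 57000 peaks, the regions closed in p27KO numbered 30. Leaving out 1 library at a time gave 27 to 45 falls and 25 to 45 rises in WT, 13 to 30 falls and 8 to 33 rises in p27KO, 35 to 62 closed and 17 to 33 opened regions in WT, and 86 to 110 closed and 35 to 52 opened regions in p27KO; over all tested regions the shares called dropped too, to between 5.98% and 9.06% for falls in WT and between 1.97% and 6.52% for falls in p27KO. The lone library then left in a p27KO group is assumed to vary like the others. Of the 49 named results, 40 were called; they kept their direction in all recomputed values and lost the call in 8 of 362 under other alternatives and in 31 of 330 without a library. The 9 that were not called passed the threshold in none of 83 and 90 values.

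Whether replicate numbers pair the libraries was not settled. Deviations of same-numbered WT libraries correlated weakly, at 0.057, 0.065 and 0.033, each the highest with its own number. Those of p27KO correlated at −0.141, where the 2 libraries of a group deviate by equal amounts in opposite directions. With the replicate number as a block, 49 regions fell and 48 rose in WT and 31 fell and 38 rose in p27KO. With the p27KO numbers crossed, an alternative chosen after seeing the data, 33 fell and 38 rose in p27KO. Unknown depth limits every statement on absent peaks.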

Other observations

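An intronic region of Plxnc1, a plexin, at chr10:94872133-94872221 had a peak in both p27KO PRO libraries and in no other. It was 89 bp wide and lay at percentiles 99.9 and 100 of these lists, with fold enrichments of 32.7 and 42.3. With peaks in 2 libraries it was not among the 447 tested regions; when the limit was lowered to 2 libraries, it was the guidance region called for the interaction (−4.39 ± 0.28, limma adjusted p = 0.000155) and for p27KO against WT at PRO (4.38 ± 0.20, adjusted p = 3.77e-06). Over the genome, 1083 regions had a peak in both p27KO PRO libraries alone, of which 12 were at guidance genes. In 14 of the 1083 the percentile was at least 99 in both lists, and all 14 were between 81 and 96 bp wide, while the median width of all regions found in 2 or more libraries was 486 bp. The Plxnc1 region was the 1 among these 14 at a guidance gene, and it is named after its values were seen.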
